A study of Rattus norvegicus with 2 samples.

Results

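The 10 genes that encode the core transcription factors of heart muscle were followed in rat heart: Nkx2-5, Gata4, Gata6, Tbx5, Tbx20, Hand1, Hand2, Mef2a, Mef2c and Irx4. They were found by their gene symbol in the platform's annotation of the deposited value table, and 8 of the 10 had probes, 14 in all, among 15613 named genes. No probe carried the symbol Tbx20 or Mef2c there, so these 2 genes were not analysed here. Members with several probes were averaged on the log2 scale.

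The data came from 2 arrays of the Agilent two-colour type. Each carried, in the Cy3 channel, RNA of untreated and uncultured rat heart (heart 1 or heart 2), which the series text calls somatic heart cells. The Cy5 channel of both arrays held mix1, a mixture of bone marrow cells grown in αDMEM and primary ear fibroblasts grown in DMEM, each with fetal bovine serum. The labels give no strain, age, sex or genotype, and do not say whether heart 1 and heart 2 are separate animals, so that a p-value here reflects the variation between 2 RNA samples that may be technical replicates. Mix1 counts as 1 control sample whose own spread enters no test, and tissue and culture cannot be told apart as sources of a difference. All ratios are given as log2 of heart over mix1, so that 1 is a 2-fold higher and -1 a 2-fold lower signal in heart. The sign is likely and not stated: the series text speaks of heart compared with mix1, and 16 of 16 genes of a cardiac sarcomere list that holds none of the factors were positive on both arrays (median 5.78), from 3.28 for Nebl and 4.18 for Myh6 to 7.23 for Tnnc1 and Mybpc3.

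These factors bind DNA beside each other at the enhancers and promoters of heart genes. Nkx2-5 is a homeodomain protein, Gata4 and Gata6 are zinc finger proteins, Tbx5 and Tbx20 carry a T-box, Hand1 and Hand2 are basic helix-loop-helix proteins, Mef2a and Mef2c are MADS-box proteins and Irx4 is an Iroquois homeodomain protein of the ventricle. They act first in the embryonic heart, where they specify muscle, chambers and septa, and several of them stay on in adult heart muscle to hold up genes of contraction and conduction.

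Of the 8 measured factors, 6 were between 3.78-fold and 21.8-fold higher in heart than in mix1: Hand2, Gata6, Nkx2-5, Gata4, Irx4 and Mef2a, in descending order of their ratio. Tbx5 was 1.27-fold higher, and Hand1 was slightly lower in heart. All 8 passed limma's moderated test at an adjusted p of 0.05, with adjusted p-values from 0.0012 to 0.028, a threshold that 72.9% of all genes passed. Of the 8, 7 were higher and 1 lower, where 31.4% of all genes were called higher and 41.5% lower. Of the 8, 6 were called and at least 2-fold higher, against 16.9% of all genes, and none was called and at least 2-fold lower, against 19.5%. Of the 14 single probes, 12 passed the same test run over probes, against 65.1% of all probes; the 2 others belonged to Tbx5 and Hand1. The median ratio of the 8 was 3.11, beside -0.090 over all genes. On heart 1 alone, with no test, the same 6 factors were at least 2-fold higher, where 17.3% of all genes were, and on heart 2 alone they were as well, where 17.7% of all genes were.

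**Figure D1:**
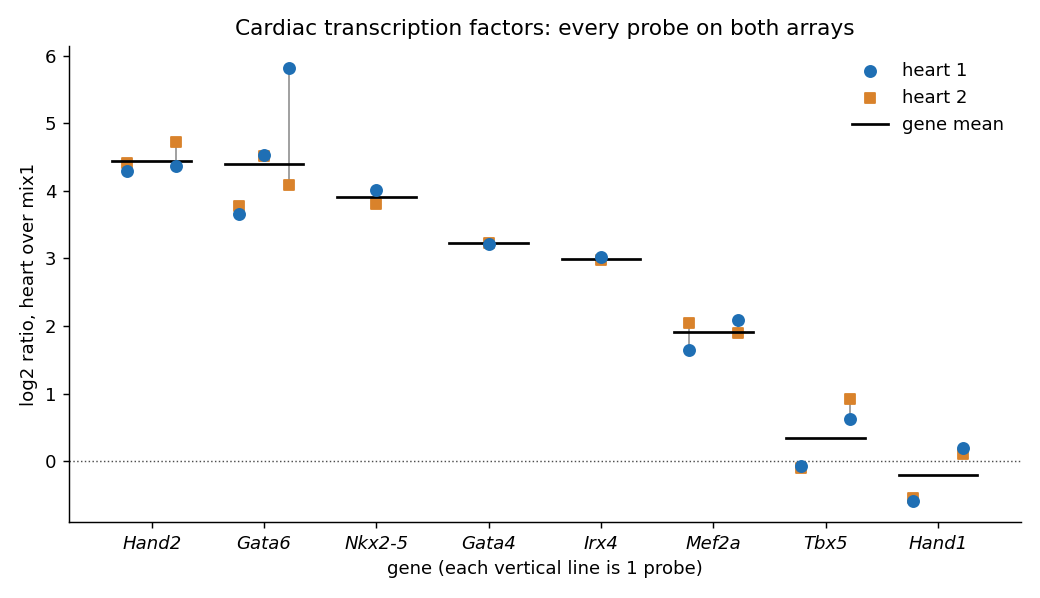
Log2 ratio of heart over mix1 (vertical axis) for each of the 14 probes of the 8 measured factors; a vertical line joins the values of 1 probe on heart 1 (circle) and heart 2 (square), and a black bar marks the mean of the gene. Probes of Hand2, Gata6, Nkx2-5, Gata4, Irx4 and Mef2a all lie above 1, while the probes of Tbx5 and those of Hand1 lie on both sides of 0.

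A ratio compares heart with mix1 for 1 gene and does not rank the factors by abundance, since no spot intensity was used here. For the same reason it is not known whether a ratio near 0 comes from similar expression or from signal near background in both channels. In RNA of a whole tissue, fewer cells of a type and less RNA per cell cannot be told apart. Heart 2 stood apart in genes of lung epithelium: the 10 genes of that list had a median of 0.014 on heart 1 and 3.16 on heart 2, and Sftpc, a surfactant protein gene, was at 0.84 and 6.68. Sftpa1, another surfactant gene, was at 0.56 and 6.51, and the lowest gene of the list, the club cell gene Scgb1a1, at -1.21 and 0.76. Of these 10, 0 passed limma's test, and 0 had an unadjusted p under 0.05. With array medians subtracted, 8 of the 10 passed, in a fit that ignored each gene's own spread. Every adjusted p-value given below for a gene with array medians subtracted, or after centring, comes from that fit. The 8 factors had medians of 3.12 on heart 1 and 3.10 on heart 2. Across genes the arrays had a Pearson r of 0.978, which describes genes that share mix1 and are not independent replicates, and the typical absolute difference between arrays was 0.083 (median over genes).

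**Figure D2:**
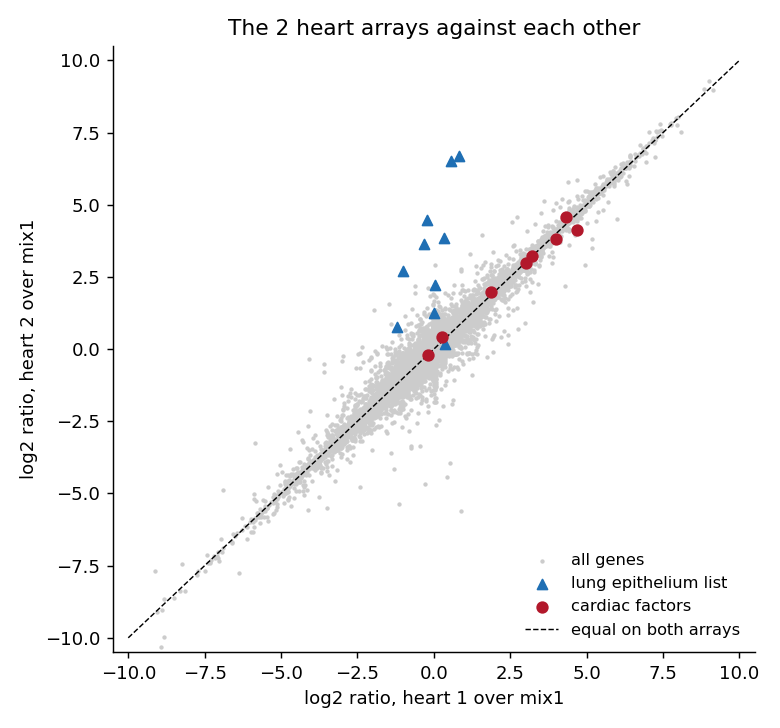
Log2 ratio on heart 2 (vertical axis) against heart 1 (horizontal axis) for all genes (grey), the 10 genes of the lung epithelium list (triangles) and the 8 cardiac factors (red circles), with a dashed line where both arrays are equal. The factors lie along the line, with Gata6 farthest from it at 4.67 and 4.13, while surfactant genes such as Sftpc lie far above it.

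Nkx2-5, a homeodomain factor that is among the earliest marks of the heart muscle lineage, was at 4.01 on heart 1 and 3.81 on heart 2. Both arrays placed it far above 0. Its mean of 3.91 ± 0.14 (SD, n = 2) is a 15.0-fold difference (limma adjusted p 0.00139, higher on 2 of 2 arrays) and the 386th highest ratio of 15613 genes. It rests on 1 probe. Of the other NK2 homeobox genes, 3 of 7 were measured. Nkx2-3, a factor known from gut and spleen, was higher at 2.09 and 2.03 (adjusted p 0.00139). The lung and thyroid factor gene Nkx2-1 was at 0.37 and 0.18 and did not pass (adjusted p 0.0663), and it was not higher on the array with lung transcripts. Nkx2-2, a factor of the nervous system and pancreas, was lower at -0.44 on both arrays (adjusted p 0.00701), a call that did not hold once each array had its own median subtracted (-0.38, adjusted p 0.0665). On each array Nkx2-5 exceeded Nkx2-3, by 1.91 on heart 1 and 1.78 on heart 2.

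Gata4, the zinc finger factor that partners Nkx2-5 and Tbx5, gave nearly the same ratio on both arrays, 3.22 on heart 1 and 3.23 on heart 2. Its mean of 3.22 ± 0.0049 (SD, n = 2) is a 9.33-fold difference (limma adjusted p 0.0012), again from 1 probe. Gata6, which overlaps with Gata4 in function and is also made in smooth muscle, lung and gut, was at 4.67 and 4.13, with a mean of 4.40 ± 0.38 (adjusted p 0.00312) and a 21.1-fold difference. Both genes were high on both arrays, and Gata6 exceeded Gata4 by 1.45 on heart 1 and by 0.90 on heart 2. The spread of Gata6, the widest of the 8, came from 1 of its 3 probes. That probe read 5.82 on heart 1 and 4.09 on heart 2, whereas a second read 4.52 and 4.51 and the third 3.66 and 3.78. Without the probe that differed between arrays by more than 1, Gata6 was at 4.12 (limma adjusted p 0.000585). The filter removed probes by the same difference that the test takes as error. A smaller p-value after it therefore says nothing on reliability.

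The other measured GATA factors, which serve blood cell lineages, had smaller ratios. Gata5 was not measured. Of the 3 measured, Gata3, a T cell factor, was higher at 1.95 on heart 1 and 1.59 on heart 2 (limma adjusted p 0.00638). Gata1, the red blood cell factor, was at 0.40 on both arrays (adjusted p 0.00819). Gata2, a factor of blood progenitors and endothelium, was at 0.56 and 0.26 without passing (adjusted p 0.064). Gata2 passed with array medians subtracted (adjusted p 0.0194), in the fit that ignored each gene's own spread. Gata4 and Gata6 thus lay above all 3 relatives on each array. Mix1 contained bone marrow cells, so that the ratios of blood cell factors compare heart with a marrow culture.

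Hand2 and Hand1 are sister genes of the basic helix-loop-helix class, known from the embryo as factors of the right and left ventricle. Hand2 was at 4.33 on heart 1 and 4.56 on heart 2, with a mean of 4.45 ± 0.16 (SD, n = 2), a 21.8-fold difference (limma adjusted p 0.00139) and the highest ratio of the 8. Its 2 probes were similar, the first at 4.30 and 4.40, the other at 4.36 and 4.71. Hand1 was at -0.19 and -0.21, with a mean of -0.20 ± 0.014 (SD, n = 2; adjusted p 0.028). The 2 genes were far apart on both arrays: Hand2 exceeded Hand1 by 4.53 on heart 1 and 4.77 on heart 2, a mean difference of 4.65 ± 0.18 (SD, n = 2).

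The Hand1 value is an average of probes that disagree. One read 0.19 on heart 1 and 0.11 on heart 2 and did not pass (limma adjusted p 0.112 over probes), and the other read -0.58 and -0.53 and passed (adjusted p 0.00871). The gene's mean lies close to the median of all genes (-0.090), and with the median of each array subtracted the gene no longer passed (-0.14, adjusted p 0.542). There was no dye swap, and a difference of this size cannot be told apart from dye bias.

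The promoters of the Hand genes are shown because this pair had the highest and the lowest ratio of the 8 factors. Each window, from RefSeq on build GRCr8, runs from 250 bases before to 50 bases after the annotated start of the gene, 5′ to 3′ along the gene. Capitals mark matches, on either strand, to 6 motifs: CTA and TAG separated by any 4 bases for MEF2, AGATAA for GATA factors, TNAAGTG for NKX2-5, AGGTGTNA for T-box factors, CATCTG for the E-box bound by HAND proteins, and TATAAA for the TATA box. The Hand2 window is chr16:37931439-37931738 and the Hand1 window chr10:42509635-42509934, both on the minus strand.
Hand2: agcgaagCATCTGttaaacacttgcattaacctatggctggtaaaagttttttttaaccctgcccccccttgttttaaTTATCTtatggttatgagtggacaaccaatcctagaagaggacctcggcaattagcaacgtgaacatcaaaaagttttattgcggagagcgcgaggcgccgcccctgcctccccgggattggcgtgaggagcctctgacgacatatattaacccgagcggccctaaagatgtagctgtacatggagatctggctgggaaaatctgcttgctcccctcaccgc
Hand1: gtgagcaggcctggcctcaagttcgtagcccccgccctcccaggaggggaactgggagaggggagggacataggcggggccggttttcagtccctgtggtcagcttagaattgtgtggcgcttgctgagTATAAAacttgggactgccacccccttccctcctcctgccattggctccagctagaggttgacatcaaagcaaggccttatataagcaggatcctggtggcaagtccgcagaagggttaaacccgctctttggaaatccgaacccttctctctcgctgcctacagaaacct
The Hand2 window held a CATCTG at bases 8 to 13 and a GATA motif on the opposite strand at bases 79 to 84. The Hand1 window held a TATAAA at bases 130 to 135 and none of the other 5 motifs. Such matches are common: CATCTG was in 16.6%, AGATAA in 11.6% and TATAAA in 14.2% of 33469 promoters of this length. A match of letters is not a bound site.

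More distant relatives of the Hand genes split between the channels. Tcf21, a factor of epicardium and cardiac fibroblasts, was higher in heart at 3.18 and 2.96 (limma adjusted p 0.00176), and Tcf15, known from endothelium of heart and muscle, at 1.96 and 2.14 (adjusted p 0.00228). Twist1 and Twist2, mesenchymal factors of fibroblasts, were lower at -1.47 and -1.50 and at -1.74 and -1.90 (adjusted p 0.0016 and 0.00242).

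Tbx5, the T-box factor whose loss causes septal and limb defects, differed little from mix1. It was at 0.28 on heart 1 and 0.41 on heart 2, with a mean of 0.35 ± 0.094 (SD, n = 2), a 1.27-fold difference (limma adjusted p 0.0272). Both arrays were above 0, but its 2 probes were not: one read 0.62 and 0.93 and passed (adjusted p 0.0232 over probes), the other -0.062 and -0.097 and did not (adjusted p 0.236). With the probe that differed least between the arrays as the value of the gene, Tbx5 turned to -0.080 (adjusted p 0.12). Its direction therefore depends on the probe. Of 15 other T-box genes, 10 were measured, and 2 were higher, 3 lower and 5 not called, with a median of -0.058 (31.4% of all genes were higher and 41.5% lower). Tbx3, a factor of the conduction system, was lower at -0.97 and -0.91 (adjusted p 0.00301), and Tbx18, of epicardium and sinus node, at -0.68 and -0.87 (adjusted p 0.0105). Tbx19, the pituitary T-box factor, was the highest of the 10 at 0.87 and 0.78 (adjusted p 0.00442). Tbr1, a factor of the cerebral cortex, came next at 0.76 and 0.36 and did not pass (adjusted p 0.0598). Tbr1 did pass after quantile scaling (adjusted p 0.0486). It also passed with array medians subtracted (adjusted p 0.0017), in the fit that ignored each gene's own spread. Tbx6, of early mesoderm, was the lowest at -1.21 and -0.84 (adjusted p 0.0173). Of the 11 T-box genes measured, Tbx5 among them, 0 were called and at least 2-fold higher in heart, against 16.9% of all genes. Tbx20 was not among the 11, since no probe carried its symbol.

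Mef2a, a MADS-box factor that muscle and many other cells make, was higher in heart at 1.86 on heart 1 and 1.97 on heart 2. The mean of 1.92 ± 0.075 (SD, n = 2) is a 3.78-fold difference (limma adjusted p 0.00172). One probe read 2.08 and 1.90 and the other 1.65 and 2.04, so the probes overlapped. Mef2d, its broadly expressed sister, was lower at -0.52 and -0.78 (adjusted p 0.0226), and Mef2a exceeded it by 2.38 on heart 1 and by 2.75 on heart 2. The promoter of Mef2a is shown because of the promoters of 7 factors in the RefSeq table it was the only one with a match to the MEF2 motif, the class of site that the protein itself binds. The window is chr1:130392113-130392412 on the minus strand of GRCr8, from RefSeq, with the match in capitals.
Mef2a: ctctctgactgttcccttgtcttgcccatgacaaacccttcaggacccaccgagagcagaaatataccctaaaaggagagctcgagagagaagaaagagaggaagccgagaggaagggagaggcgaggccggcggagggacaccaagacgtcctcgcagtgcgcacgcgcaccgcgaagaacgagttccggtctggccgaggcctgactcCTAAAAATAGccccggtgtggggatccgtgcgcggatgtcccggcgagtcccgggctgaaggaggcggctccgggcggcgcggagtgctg
The match lies at bases 211 to 220, upstream of the start at base 251, and 3.84% of 33469 promoters held one. The table held a promoter for 7 of the 8 measured factors, not for Gata4. The windows of Nkx2-5, Gata6 and Irx4 held none of the 6 motifs. The Tbx5 window held 1 CATCTG, read on the opposite strand.

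Genes that act on MEF2 proteins were called in both directions, as were genes at large (31.4% higher and 41.5% lower). Of 9 kinases, histone deacetylases and other regulators of MEF2, 2 were higher and 6 lower (3 lower after the same subtraction of array medians), and their median was -0.37 beside -0.090 over all genes. Camk2d, the main cardiac CaM kinase II gene, whose product relieves MEF2 of histone deacetylases, was higher at 1.31 and 1.34 (limma adjusted p 0.00172), as was the deacetylase gene Hdac4 at 0.68 and 0.59 (adjusted p 0.00663). Mapk7, the MEF2-activating kinase ERK5, was lowest at -2.14 and -2.07 (adjusted p 0.00143), followed by Prkd1, the protein kinase D1 gene, at -1.36 and -1.53 (adjusted p 0.00354).

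Irx4, the Iroquois factor restricted to ventricular muscle, was at 3.02 on heart 1 and 2.97 on heart 2. Its mean of 2.997 ± 0.033 (SD, n = 2) is a 7.98-fold difference (limma adjusted p 0.0012) from 1 probe. Of its 4 measured relatives, 2 were lower in heart and 2 were not called, where 41.5% of all genes were lower. Irx2 was lower at -1.42 and -1.43 (adjusted p 0.0016) and Irx3, a factor of the conduction system, at -1.19 and -1.32 (adjusted p 0.00323), while Irx1 (-0.010 and 0.097) and Irx6 (0.075 and -0.12) did not pass. Irx4 exceeded Irx3 by 4.21 on heart 1 and 4.29 on heart 2.

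**Figure D3:**
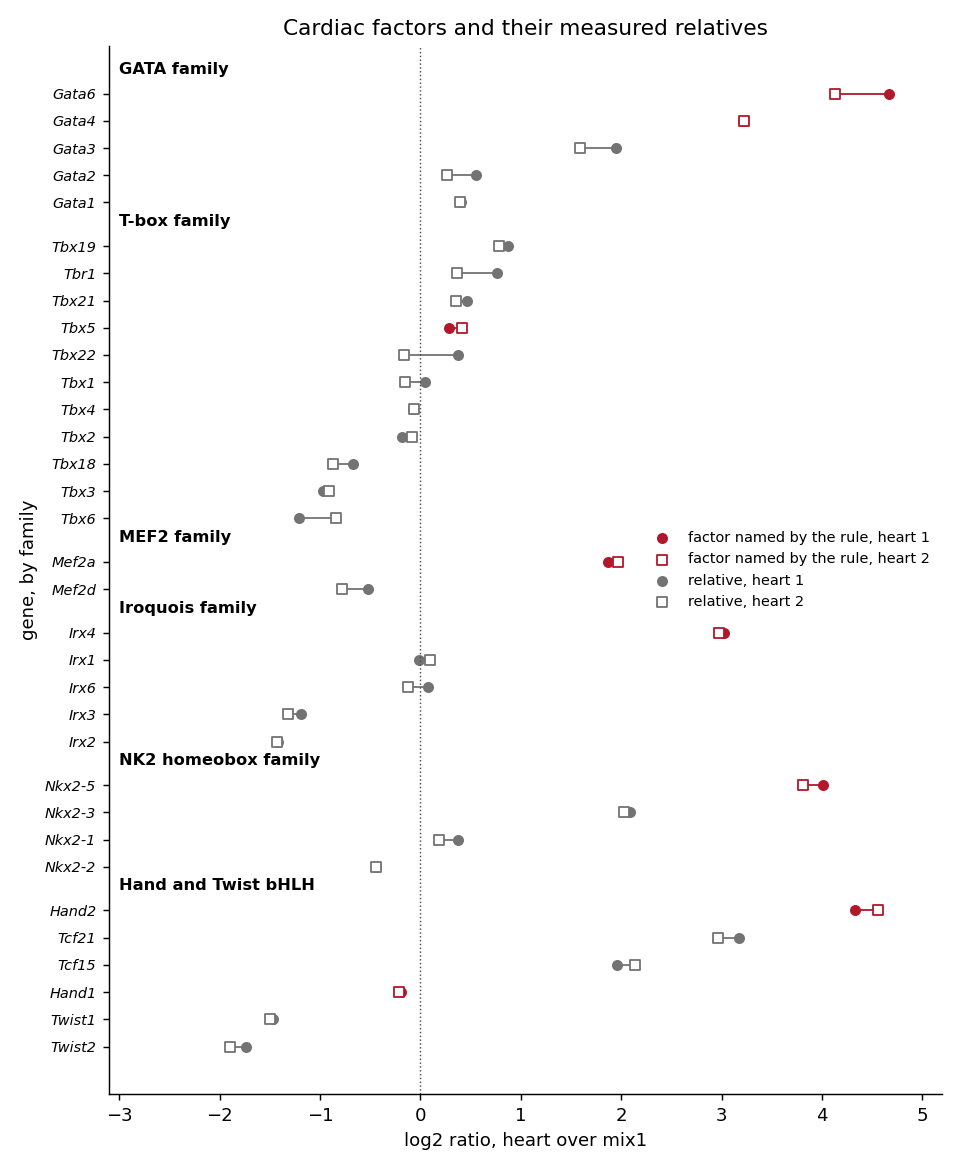
Log2 ratio of heart over mix1 (horizontal axis) for the factors (red) and their measured relatives (grey), grouped by family, with heart 1 as a filled circle and heart 2 as an open square. Irx4, Mef2a, Nkx2-5, Hand2, Gata4 and Gata6 lie to the right of every measured relative in their family, and Tbx5 and Hand1 do not.

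The order of the ratios was Hand2, Gata6, Nkx2-5, Gata4, Irx4, Mef2a, Tbx5, Hand1. With probes averaged, the neighbours Hand2 and Gata6 did not differ beyond the spread of the arrays. Gata6 lay above Hand2 on heart 1 (4.67 and 4.33) and below it on heart 2 (4.13 and 4.56). That crossing rested on the Gata6 probe that read 5.82 on heart 1 and 4.09 on heart 2. Without that probe the mean of Gata6 was 4.12, beside 4.45 for Hand2. The array values of the other neighbours, with probes averaged, did not overlap. Single probes could reverse the order. A probe of Gata6 read 3.66 and 3.78, below Nkx2-5 (4.01 and 3.81). A probe of Hand1 read 0.19 and 0.11, above a probe of Tbx5 (-0.062 and -0.097). Among all genes, 5 of the 8 lay above the 95th percentile (2.81), Mef2a between it and the 90th (1.76), Tbx5 at percentile 69.9 and Hand1 at percentile 45.1.

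**Figure D4:**
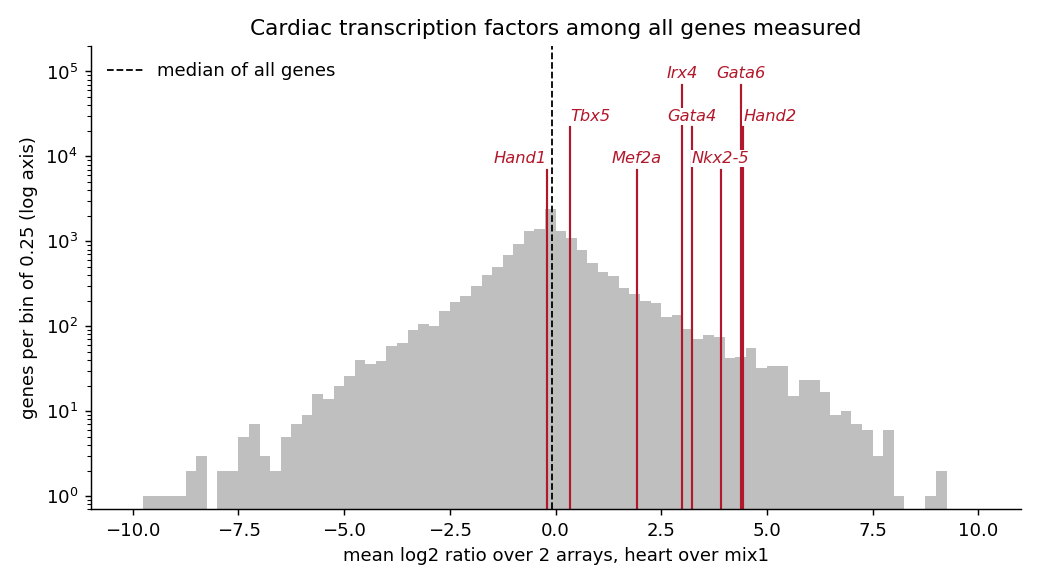
Number of genes per bin of the mean log2 ratio of heart over mix1 (log vertical axis) for 15613 genes, with red lines at the 8 factors and a dashed line at the median of all genes (-0.090). Hand2 (4.45) and Gata6 (4.40) lie farthest to the right of the factors, and Hand1 (-0.20) lies next to the median.

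Among 23 measured cofactors and partners of these proteins, 10 were higher in heart, 8 lower and 5 not called, and the median was 0.38. Over all genes, 31.4% were higher and 41.5% lower, and the median was -0.090. Of the 23, 8 were called and at least 2-fold higher, against 16.9% of all genes. At least 2-fold lower were 5 of them, against 19.5% of all genes. Ankrd1, a cardiac ankyrin repeat protein and target of Nkx2-5 and Gata4, was at 6.59 on heart 1 and 6.51 on heart 2, and Csrp3, the muscle LIM protein, at 6.14 and 5.98 (limma adjusted p 0.0012 for both). Shox2, a homeodomain factor of the sinus node, was the lowest at -4.71 and -3.46 (adjusted p 0.0125), and Nfatc4, a calcineurin-regulated partner of Gata4, was at -2.75 on both arrays (adjusted p 0.0012).

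Of 21 measured genes known as targets of the factors, 20 were at least 2-fold higher in heart and 1 was lower, with a median of 4.71. Over all genes, 16.9% were called and at least 2-fold higher and 41.5% were called lower, and the median was -0.090. Nppb, the B-type natriuretic peptide gene that GATA factors and Nkx2-5 bind, was highest at 9.02 and 9.28, and Pln, the phospholamban gene, followed at 7.12 and 7.23 (limma adjusted p 0.0012 for both). The smallest positive ratio was that of Adora1, the adenosine receptor gene, at 1.01 and 1.25 (adjusted p 0.00744). Gja1, the connexin 43 gene, was lower at -0.47 and -0.46 (adjusted p 0.00649), a call that did not hold with array medians subtracted (adjusted p 0.0509). Tnni3, Tnnt2, Actc1, Myh6 and Myl2 are on both this list and the sarcomere list that the sign was read from, so their direction is not independent of it.

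Genes of ventricle and of atrium were both among those higher in heart. Of 9 chamber genes besides Irx4, 7 were higher and 2 lower (31.4% and 41.5% of all genes), and the median was 3.85. Myl2, a ventricular myosin light chain, was at 5.76 and 5.80, and Myl4, an atrial myosin light chain, at 5.26 and 5.30 (limma adjusted p 0.0012 for both). Nr2f2 (COUP-TFII), an atrial factor that veins and fibroblasts also make, was lower at -1.05 and -1.06 (adjusted p 0.00211), as was Nr2f1 at -0.48 and -0.52 (adjusted p 0.00651).

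Markers of other heart cells differed by cell type. All 10 endothelial markers were at least 2-fold higher in heart (16.9% of all genes were), with medians of 3.79 on heart 1 and 3.93 on heart 2 and a range of means from 1.24 (Cdh5) and 2.21 (Tie1) to 4.80 (Emcn) and 5.79 (Kdr). All 10 fibroblast markers were at least 2-fold lower (19.5% of all genes were), with medians of -4.91 and -4.94. Their means ranged from -8.36 (Fn1) and -7.19 (Col1a2) to -3.32 (Dcn) and -1.57 (Pdgfra). Mix1 contained cultured ear fibroblasts, so that these ratios set heart against a mixture with fibroblasts. They do not give the share of fibroblasts in heart. Of 6 smooth muscle markers, 4 were lower and 2 were not called (41.5% of all genes were lower), with medians of -0.90 and -1.41 and means from -4.96 (Tagln) and -4.52 (Cnn1) to 0.13 (Myh11) and 0.18 (Smtn). Gata6 is also made in smooth muscle, and Gata2, Tcf15 and Tcf21 in endothelium or fibroblasts. The part of these cell types in the ratios of the factors was not tested.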

How the data were processed

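Expression was measured in 2 rat heart samples against 1 common control RNA, mix1. The authors' deposited table held 1 log2 ratio for each of 40012 probes on each array. Agilent Feature Extraction was used, per the submitters' processing notes. Its version and the way background and dyes were corrected are not stated there. The base was taken as log2 from the range of the values, and natural logs were tried. The medians of the arrays were 0.012 and -0.14. No intensity was used, so the signal over background is unknown, and with 2 arrays precision is limited.

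The annotation gave 1 symbol to 20417 probes and none to 19595; accessions matched 16978 probes to the GRCr8 gene table, and 2300 symbols were updated, none of them to a member. Probes of a gene were averaged. All 15613 genes were fitted with limma 3.58.1 in R 4.3.3 (intercept, lmFit, eBayes, two-sided, 1 residual degree of freedom), with Benjamini-Hochberg adjustment over all genes, or over all probes where stated. The code was tested on simulated data. The members and lists were chosen with earlier results of these data known. The text names every member, and of other lists the 2 highest and 2 lowest genes, or any gene of a list of 8 or fewer. Alternatives were centring, quantile scaling, the median or the most stable probe, symbols as given, robust moderation, natural logs, a filter on probes that differ between arrays, and leaving out each array.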

Additional observations from a re-analysis of the deposited data

How the results depend on the processing

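Counts of calls stayed within 1.5 times under every alternative with a test: 10278 to 11642 genes (11385 as deposited), 25089 to 26167 probes (26056 as deposited), 7 or 8 members called and 6 members called at 2-fold. For single members, 62 of 64 values from these alternatives kept their direction and their side of the threshold. Many of the 62 could not do otherwise, so the tally is no measure of robustness. Natural logs rescale every ratio and leave each adjusted p-value as it was, and symbols as given left the members' ratios unchanged. The median of probes equals their mean for each member but Gata6, and the probe filter changed only the ratio of Gata6. Tbx5 turned to -0.080 when its most stable probe, by the difference between arrays, stood for the gene, and Hand1 lost its call after centring (adjusted p 0.542), in a fit whose prior degrees of freedom were infinite and which so ignored each gene's own spread. Read as natural logs, the ratios grow, Hand2 to 6.41 and Mef2a to 2.77 on the log2 scale, with the same calls. Leaving out each array in turn left a value with no test: 6 factors were at least 2-fold higher on either array (this count was added after the data were seen because of the lung transcripts on heart 2), and Gata6 ranged from 4.13 to 4.67. No paired analysis was possible because there is 1 group. Without intensities no filter on dim probes could be run, and ratios under 2-fold are open to dye bias.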

Other observations

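Regulators of skeletal muscle and of pacemaker tissue, cell types that share MEF2 or T-box factors with working heart muscle, were not uniformly higher in heart. Of 6 measured skeletal muscle regulators, 1 was higher, 1 lower and 4 not called, where 31.4% of all genes were higher and 41.5% lower. Myog, the myogenin gene, was higher at 1.78 on heart 1 and 1.87 on heart 2 (limma adjusted p 0.00168) and Myf5 was lower at -0.99 and -0.95 (adjusted p 0.00246), while Myod1 was at 0.58 and 0.28 without passing (adjusted p 0.0607; 0.0138 after centring) and Six4 at -0.42 and 0.12 (adjusted p 0.536). Of 7 conduction system genes, 2 were higher and 2 lower, beside the same shares of all genes. The lower ones were Shox2, at -4.71 and -3.46 (adjusted p 0.0125), and Tbx3, at -0.97 and -0.91 (adjusted p 0.00301). Tbx2 (-0.18 and -0.088, adjusted p 0.106) and Cntn2 (0.038 and 0.53, adjusted p 0.256) did not pass. Hcn4, the pacemaker channel gene, was at 1.42 and 2.00 (adjusted p 0.0152) and Etv1 at 0.79 and 0.80 (adjusted p 0.00301). Isl1, a factor of cardiac progenitors and the sinus node, was at 0.64 and 1.29 and did not pass as deposited (adjusted p 0.0538). Isl1 did pass after quantile scaling (adjusted p 0.0402) and after centring (adjusted p 1.24e-07). The fit after centring ignored each gene's own spread, for Isl1 and Myod1 alike.

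Of 6 genes of epicardium and mesothelium, 3 were higher and 3 lower, where 31.4% of all genes were higher and 41.5% lower. Wt1, a zinc finger factor of the epicardium, was higher at 4.92 and 4.94 (limma adjusted p 0.0012), above each of the 8 cardiac factors in its mean ratio, and Aldh1a2, a retinoic acid synthesis gene, at 1.02 and 1.66 (adjusted p 0.0284). The mesothelial genes Msln, at -1.33 and -1.47 (adjusted p 0.00297), and Upk1b, at -1.53 and -1.64 (adjusted p 0.00215), were lower. Of 7 macrophage genes, 2 were higher and 4 lower, beside the same shares over all genes (31.4% and 41.5%). The highest were Cd163 at 1.77 and 1.99 (adjusted p 0.00323) and Itgam at 1.03 and 0.95 (adjusted p 0.00318). The lowest were Lyz2 at -1.72 and -1.26 (adjusted p 0.0129) and Cd14 at -3.81 on both arrays (adjusted p 0.0012).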
